A study of Saccharomyces cerevisiae with 8 samples.

Results

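The transcripts of glycolysis, alcoholic fermentation, and glycerol and acetate formation were followed in the budding yeast *Saccharomyces cerevisiae*. The list held 32 genes, chosen by name as enzymes of these routes, and 31 of them had a named probe set, among 5449 named genes on the arrays. *TDH2*, which encodes a glyceraldehyde-3-phosphate dehydrogenase isozyme, was not analysed here. No member was measured by more than 1 probe set. Of the 31 genes, 9 were taken as the major gene of an isozyme group, 15 as minor genes, and 7 encode enzymes or subunits without such a pair.

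Total RNA was measured on 8 Affymetrix expression arrays in 4 groups of 2 arrays. The groups were a strain named PY1 and a temperature-sensitive strain labelled met30-6 (py283), kept at 25 °C, the room temperature of the labels, or moved to 35 °C for 1 h. No source used here gives the genotype of PY1. All cultures were grown in YPDA, a rich medium, to mid-log phase at the lower temperature. The product of *MET30* is the F-box subunit of an SCF ubiquitin ligase that acts on Met4, the activator of the sulfur amino acid genes, and 35 °C was the non-permissive temperature for the allele. The temperature shift in PY1 gives the response of a strain without that label, and the interaction, the response in met30-6 minus the response in PY1, tests whether the 2 responses differ. No label tells whether replicates were separate cultures, so a p-value here covers the spread between the arrays at hand, which may be technical only.

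Glycolysis splits glucose into 2 molecules of pyruvate, and in fermenting yeast pyruvate decarboxylase and alcohol dehydrogenase turn pyruvate into ethanol. Side branches lead to glycerol, through glycerol-3-phosphate dehydrogenase, and to acetate and acetyl-CoA, through aldehyde dehydrogenase and acetyl-CoA synthetase. Many of these steps have several genes in yeast. One gene usually supplies most of the enzyme during growth on glucose, and its paralogs are used in other conditions, such as growth without glucose, stress or a limited supply of a nutrient.

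The values are the authors' deposited log2 expression values, and differences were tested with limma over all named genes, called at an adjusted p below 0.05. Replicates correlated at Pearson's r between 0.9927 and 0.9951, and array medians lay between 10.97 and 11.09. One array stood apart at high levels. Among the 435 genes with a mean level from 13 to 14, replicate 2 of PY1 at 25 °C lay below replicate 1 by a median of 0.20, with 398 genes lower, whereas the medians in the other 3 groups lay between −0.054 and −0.028. The 9 members at this level, *ACS2*, *ADH3*, *ALD6*, *ENO1*, *HXK2*, *PFK1*, *PFK2*, *PGI1* and *TDH1*, were all lower in that array, by 0.029 to 0.335. Its part in the results was not tested beyond leaving it out, which is given below where it changed a call. In RNA from whole cultures, a change in the level per cell and a change in the share of cells that carry a transcript cannot be told apart. Summed log2 values of cell type markers ranged over the arrays from 65.19 to 68.57 for 6 genes of a cells. They ranged from 23.58 to 26.66 for 4 genes of alpha cells and from 43.47 to 47.26 for 6 genes of sporulation. No marker was at 0. Of the a-cell genes, *MFA1*, *MFA2*, *STE2*, *STE6* and *AGA2* had group means of 10.90 or more and *BAR1* of 6.24 or less. Of the alpha-cell genes, *SAG1* had group means of 9.78 or more, and *MF(ALPHA)1*, *MF(ALPHA)2* and *STE3* of 6.36 or less. Of the 6 a-cell genes, 4 were called lower in PY1 at 35 °C and 4 higher in the interaction, or 66.7% each. Of all genes, 10.4% were called lower in PY1 and 23.7% higher in the interaction. Of the 6 sporulation genes, 4 were called higher and 1 lower at 35 °C in met30-6, against 38.8% and 29.3% of all genes. In PY1, 3 of them were called higher and 1 lower, against 26.2% and 10.4% of all genes. The part of these markers in the results was not tested.

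Most minor isozyme genes changed at 35 °C in met30-6 and most major genes did not pass the test. Of the 31 members, 12 rose and 5 fell at 35 °C in met30-6, or 38.7% and 16.1%, where 38.8% of all genes were called higher and 29.3% lower. In PY1, 6 members rose and 3 fell, or 19.4% and 9.68%, against 26.2% and 10.4% of all genes. The members' shares were thus close to or below those of all genes. The median difference over the members was 0.094 in met30-6 and 0.028 in PY1, beside 0.074 and 0.075 over all genes. Among the 15 minor genes, 9 rose and 5 fell in met30-6 (median 0.40), and 5 rose and 3 fell in PY1 (median −0.066). Of the 9 major genes, limma called 1 higher in each strain, which was *GPD1*, and 0 lower, with medians of 0.058 and 0.016. At an unadjusted p below 0.05 these counts of major genes were again 1 and 0 in each strain. Of the 7 genes without a pair, 2 rose in met30-6, and in PY1 limma called 0, with 2 higher at an unadjusted p below 0.05. Of all genes called in PY1, 71.5% were higher at 35 °C, a share that fell to 58.4% with array medians centred and 50.1% with quantile normalization.

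Between the strains at 25 °C, 3 members were higher and 2 lower in met30-6, or 9.68% and 6.45%, where 6.94% of all genes were called higher and 5.95% lower. After 1 h at 35 °C, 11 members were higher and 3 lower, or 35.5% and 9.68%, against 34.0% and 32.7% of all genes. The interaction was called higher for 7 members and lower for 2, or 22.6% and 6.45%, against 23.7% and 24.5% of all genes. The comparisons share arrays, so their counts are not independent. In each of these the shares of higher calls lay near those of all genes, and the shares of lower calls at 35 °C and in the interaction lay below. Several counts rested on single arrays or on the scaling. Without replicate 2 of PY1 at 35 °C, 3 members rose in PY1. Without replicate 2 of PY1 at 25 °C, or replicate 1 or 2 of PY1 at 35 °C, 1, 0 and 1 fell there, and quantile normalization gave 6. Without replicate 1 of met30-6 at 25 °C or replicate 2 of met30-6 at 35 °C, 3 members fell in met30-6. Without replicate 1 of PY1 at 25 °C, 6 members were higher in met30-6 at 25 °C, and leaving out any single array left 0 or 1 lower. With array medians centred, 17 members were higher in met30-6 at 35 °C. Counts over all genes moved as well. With array medians centred, 2265 genes were called higher in met30-6 at 35 °C, against 1852 in the main fit. With quantile normalization 1144 genes fell in PY1, against 569.

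**Figure D1:**
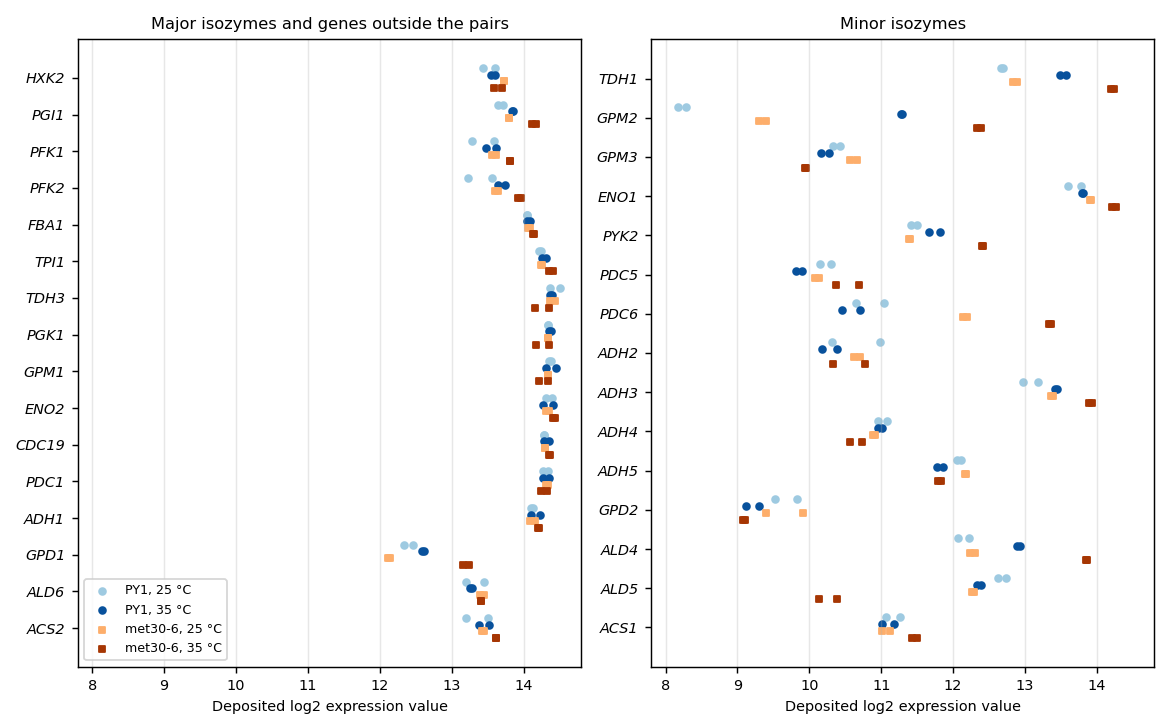
Deposited log2 expression values (x axis) of the 31 measured members, 1 point for each of the 8 arrays, with major isozyme genes and genes without a pair on the left and minor isozyme genes on the right. Colours mark strain and temperature. Of the genes on the left, 9 sit at 14 or more in all groups, whereas *GPM2* on the right spans 8.18 to 12.39.

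Of the 28 genes on the arrays whose mean was 14 or more in all groups, 9 were members: *ADH1*, *CDC19*, *ENO2*, *FBA1*, *GPM1*, *PDC1*, *PGK1*, *TDH3* and *TPI1*. The highest value of any gene on any array was 14.51. Limma called 0 of these 9 members in each of the 5 comparisons, with 1, *TPI1* in met30-6, at an unadjusted p below 0.05. Their differences lay between −0.059 and 0.054 in PY1 and between −0.146 and 0.126 in met30-6. With array medians centred, *TPI1* was called in met30-6 (0.14, adjusted p = 0.035) and between the strains at 35 °C (0.18, adjusted p = 0.016). *FBA1* was then also called between the strains at 35 °C (0.16, adjusted p = 0.0346). *PGK1* differed there by −0.11, which did not pass (adjusted p = 0.19), but was called without replicate 1 of met30-6 at 35 °C (−0.20). Of all 28 such genes, 4 were called in met30-6, 3 between the strains at 35 °C and 1 in the interaction. Limma called 0 in PY1 and 0 between the strains at 25 °C, with 1 and 0 at an unadjusted p below 0.05. The part of the upper end of the scale in the uncalled major genes was not tested. The minor genes *TDH1* and *ENO1* came up to the same region in met30-6 at 35 °C, at 14.22 ± 0.02 and 14.24 ± 0.04 (SD, n = 2), so their differences touch that end of the scale as well.

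**Figure D2:**
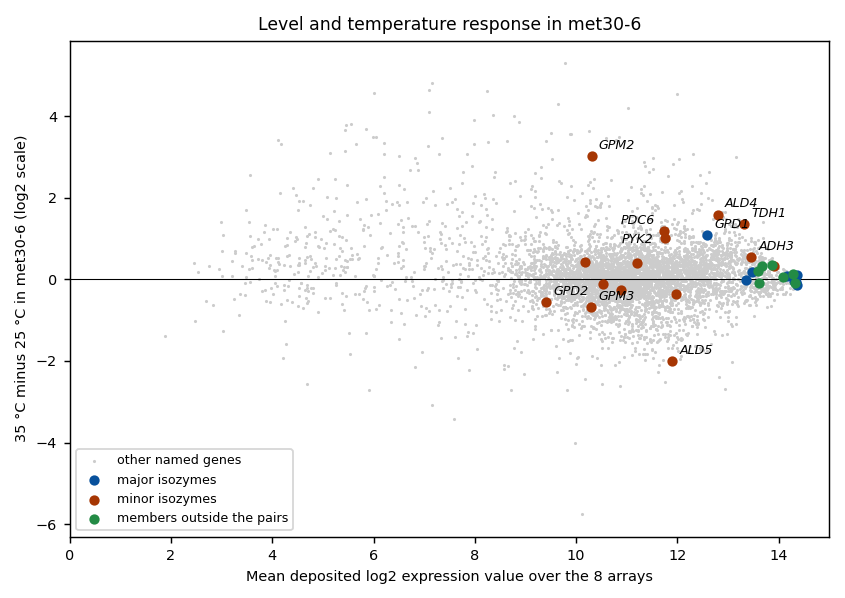
Difference between 35 °C and 25 °C in met30-6 on the log2 scale (y axis) against the mean deposited log2 value over the 8 arrays (x axis), with all named genes in grey and members in colour by class. Members with means of 14 or more lie between −0.146 and 0.126, and members at lower levels reach from −2.01 for *ALD5* to 3.01 for *GPM2*.

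In sugar entry and upper glycolysis, *PGI1* and *PFK2* rose at 35 °C in met30-6, and the other 4 genes did not pass the test. *PGI1*, which encodes phosphoglucose isomerase, stood at 13.71 and 13.64 in PY1 at 25 °C, 13.85 and 13.83 in PY1 at 35 °C, 13.79 and 13.79 in met30-6 at 25 °C, and 14.12 and 14.18 in met30-6 at 35 °C. Both met30-6 arrays at 35 °C lay above the other 6. The difference was 0.35 ± 0.05 in met30-6 (SE, adjusted p = 0.000937), and the strains differed by 0.31 ± 0.05 at 35 °C (adjusted p = 0.00189). In PY1 it was 0.16 (adjusted p = 0.0525), and the interaction, 0.19, did not pass (adjusted p = 0.0693). The interaction was called with array medians centred (0.27, adjusted p = 0.0265) and with quantile normalization (0.17, adjusted p = 0.0452). *PFK2*, which encodes the beta subunit of phosphofructokinase, the enzyme that commits sugar to glycolysis, was higher by 0.33 ± 0.11 in met30-6 (adjusted p = 0.0298). Its call ended without replicate 1 or 2 of met30-6 at 25 °C (0.31 and 0.34) or replicate 1 or 2 of met30-6 at 35 °C (0.31 and 0.35), with adjusted p up to 0.109, and with quantile normalization (0.12, adjusted p = 0.0831). *PFK1*, which encodes the alpha subunit, was 0.21 higher, with a 95% interval of −0.04 to 0.47. In PY1 the difference was 0.29 for *PFK2* (adjusted p = 0.0717) and 0.11 for *PFK1* (adjusted p = 0.459), and the interaction of *PFK2* was 0.03 (95% interval −0.33 to 0.39). Without replicate 1 of PY1 at 25 °C both PY1 values were called (0.46 and 0.27, adjusted p = 0.00637 and 0.0447), and that of *PFK2* also with the lowest 25% of genes left out and with an intensity trend. The *PFK1* difference in met30-6 was called without replicate 1 or replicate 2 of PY1 at 25 °C (adjusted p = 0.0252) or the lowest 25% of genes (adjusted p = 0.0441). The strain differences at 35 °C, 0.26 for each gene, did not pass (adjusted p = 0.0661 and 0.0669) but were called without replicate 1 or replicate 2 of PY1 at 25 °C and in 3 other alternatives. The *PFK2* strain difference at 25 °C, 0.23, was called without replicate 1 of PY1 at 25 °C (0.39, adjusted p = 0.0206).

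*HXK2* encodes the main hexokinase of cells on glucose, which also takes part in glucose repression. It lay between 13.43 and 13.73 on all 8 arrays and was not called in any comparison. Its difference in met30-6 was −0.08, with a 95% interval of −0.26 to 0.09. With quantile normalization this became −0.35 (adjusted p = 0.000384), and its strain difference at 35 °C turned from 0.07 to −0.19 (adjusted p = 0.00548). The aldolase gene *FBA1* and the triose phosphate isomerase gene *TPI1* had differences of 0.07 (95% interval −0.05 to 0.18) and 0.13 (0.005 to 0.25, adjusted p = 0.0626) in met30-6. The 2 met30-6 arrays at 25 °C were the highest of the 8 for *HXK2*, and its other groups overlapped.

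In lower glycolysis *TDH1*, *GPM2*, *PYK2* and *ENO1* rose in met30-6 and *GPM3* fell, while *TDH3*, *PGK1*, *GPM1*, *ENO2* and *CDC19* did not pass the test. *GPM2*, a homolog of the phosphoglycerate mutase gene *GPM1* whose product has little or no such activity in the cell, changed most among the members. It stood at 8.28 and 8.18 in PY1 at 25 °C, 11.28 and 11.28 in PY1 at 35 °C, 9.29 and 9.40 in met30-6 at 25 °C, and 12.33 and 12.39 in met30-6 at 35 °C. No group overlapped another, and met30-6 lay above PY1 at both temperatures. *GPM2* rose 8.29-fold in PY1 (3.05 ± 0.06, adjusted p = 2.66e-06) and 8.06-fold in met30-6 (3.01 ± 0.06, adjusted p = 4.52e-07). The interaction was −0.04, with a 95% interval of −0.26 to 0.17. Between the strains it was 2.17-fold higher in met30-6 at 25 °C (1.12 ± 0.06, adjusted p = 7.27e-05) and 2.11-fold higher at 35 °C (1.08 ± 0.06, adjusted p = 1.5e-05).

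*GPM3*, the other homolog of *GPM1*, went the opposite way in met30-6. It stood at 10.43 and 10.33 in PY1 at 25 °C, 10.16 and 10.28 in PY1 at 35 °C, 10.57 and 10.67 in met30-6 at 25 °C, and 9.95 and 9.94 in met30-6 at 35 °C. The 2 met30-6 arrays at 35 °C were the lowest of the 8. It fell by 0.67 ± 0.07 in met30-6 (adjusted p = 0.00016), against −0.16 in PY1 (adjusted p = 0.115), and the interaction was −0.51 ± 0.10 (adjusted p = 0.00526). The PY1 value was called with array medians centred (−0.215, adjusted p = 0.023) and with quantile normalization (−0.24, adjusted p = 0.0132). At 25 °C *GPM3* was higher in met30-6 by 0.24, which did not pass (adjusted p = 0.0705) but was called in 4 alternatives. At 35 °C it was lower in met30-6 than in PY1 by 0.28 (adjusted p = 0.0104), a call that ended without replicate 2 of PY1 at 35 °C (−0.22, adjusted p = 0.0647). The mutase gene *GPM1* itself lay between 14.22 and 14.44 on all arrays, and its difference in met30-6 was −0.06 (95% interval −0.22 to 0.10).

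*TDH1* encodes the glyceraldehyde-3-phosphate dehydrogenase isozyme linked to stress and stationary phase. It stood at 12.70 and 12.67 in PY1 at 25 °C, 13.49 and 13.57 in PY1 at 35 °C, 12.84 and 12.89 in met30-6 at 25 °C, and 14.20 and 14.24 in met30-6 at 35 °C. Both strains were higher at 35 °C on both arrays, and met30-6 at 35 °C lay above all others. It rose 1.80-fold in PY1 (0.85 ± 0.05, adjusted p = 0.000117) and 2.56-fold in met30-6 (1.36 ± 0.05, adjusted p = 3.59e-06), with an interaction of 0.51 ± 0.08 (adjusted p = 0.00198). At 35 °C the strains differed 1.61-fold (0.69 ± 0.05, adjusted p = 4.86e-05), and at 25 °C the difference of 0.18 did not pass (adjusted p = 0.0726). *TDH3*, the main isozyme gene on glucose, had differences of −0.06 in PY1 (95% interval −0.26 to 0.14) and −0.15 in met30-6 (−0.35 to 0.05). The phosphoglycerate kinase gene *PGK1*, which has no paralog in the list, had a difference of −0.08 in met30-6 (−0.24 to 0.07).

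*ENO1*, one of the 2 enolase genes and the one less tied to glucose, rose by 0.33 ± 0.07 in met30-6 (adjusted p = 0.00395), from 13.91 ± 0.01 to 14.24 ± 0.04 (SD, n = 2), and at 35 °C it lay 0.44 ± 0.07 above PY1 (adjusted p = 0.00109). In PY1 the difference was 0.11 (adjusted p = 0.248), called without replicate 1 of PY1 at 25 °C (0.19, adjusted p = 0.0499), and the interaction, 0.22, did not pass (adjusted p = 0.0933). It was called with array medians centred (0.30, adjusted p = 0.0341), with quantile normalization (0.22, adjusted p = 0.0203) and without replicate 2 of PY1 at 25 °C (0.31, adjusted p = 0.0198). *ENO2*, the enolase gene induced by glucose, had a difference of 0.09 in met30-6 (95% interval −0.06 to 0.25).

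*PYK2* encodes a pyruvate kinase that is repressed by glucose and, unlike the main enzyme, does not need fructose 1,6-bisphosphate for its activity. It stood at 11.49 and 11.41 in PY1 at 25 °C, 11.66 and 11.81 in PY1 at 35 °C, 11.39 and 11.40 in met30-6 at 25 °C, and 12.42 and 12.41 in met30-6 at 35 °C. The met30-6 arrays were the lowest at 25 °C and the highest at 35 °C. It rose 2.02-fold in met30-6 (1.01 ± 0.07, adjusted p = 2.07e-05), and the interaction was 0.73 ± 0.09 (adjusted p = 0.000993). At 35 °C the strains differed by 0.67 ± 0.07 (adjusted p = 0.000129). In PY1 it rose 1.22-fold (0.28 ± 0.07, adjusted p = 0.0164), a call that ended without replicate 2 of PY1 at 25 °C (0.24, adjusted p = 0.0702) or replicate 2 of PY1 at 35 °C (0.21, adjusted p = 0.0849). *CDC19*, the main pyruvate kinase gene, had differences of 0.03 in PY1 (95% interval −0.09 to 0.15) and 0.06 in met30-6 (−0.06 to 0.18).

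**Figure D3:**
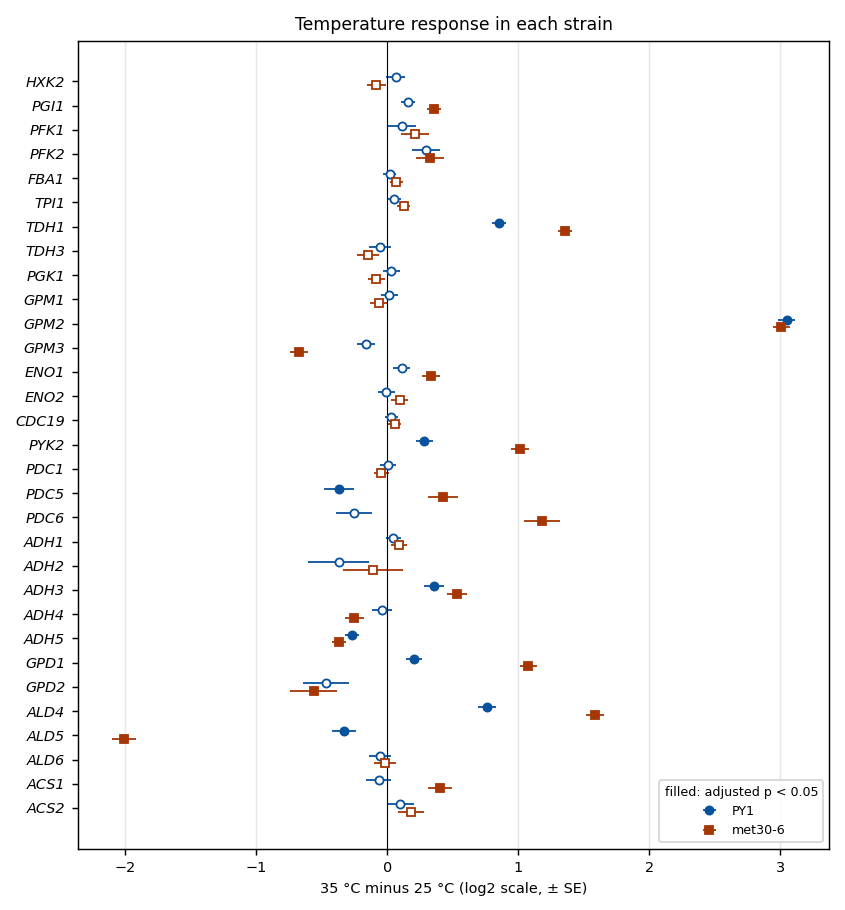
Difference between 35 °C and 25 °C on the log2 scale (x axis) for each measured member in PY1 (circles) and met30-6 (squares), with SE bars and filled symbols where the adjusted p was below 0.05. *GPM2* is near 3 in both strains, whereas *ALD5* is at −0.33 in PY1 and −2.01 in met30-6.

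At the step from pyruvate to acetaldehyde, both minor pyruvate decarboxylase genes rose in met30-6 and *PDC1*, the main gene, did not pass the test. *PDC6* encodes a minor decarboxylase that is low in sulfur amino acids and whose gene is known to be induced when sulfur is limiting. It stood at 10.64 and 11.04 in PY1 at 25 °C, 10.71 and 10.46 in PY1 at 35 °C, 12.20 and 12.14 in met30-6 at 25 °C, and 13.37 and 13.33 in met30-6 at 35 °C. Every met30-6 array lay above every PY1 array, and the PY1 groups overlapped each other. *PDC6* rose 2.27-fold in met30-6 (1.18 ± 0.14, adjusted p = 0.000291), while its difference in PY1 was −0.26 (95% interval −0.58 to 0.07). Without replicate 1 of PY1 at 25 °C the PY1 difference was called (−0.455, adjusted p = 0.0266), and over all alternatives it ranged from −0.455 to −0.059. It was above its PY1 level 2.50-fold at 25 °C (1.32 ± 0.14, adjusted p = 0.00115) and 6.79-fold at 35 °C (2.76 ± 0.14, adjusted p = 7.89e-06). The interaction was 1.44 ± 0.19 (adjusted p = 0.00126).

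*PDC5*, the isozyme gene that is raised when *PDC1* is lost or thiamine is short, was the only member called in opposite directions in the 2 strains. It stood at 10.15 and 10.31 in PY1 at 25 °C, 9.90 and 9.81 in PY1 at 35 °C, 10.13 and 10.08 in met30-6 at 25 °C, and 10.37 and 10.70 in met30-6 at 35 °C. It fell by 0.37 ± 0.11 in PY1 (adjusted p = 0.042) and rose by 0.43 ± 0.11 in met30-6 (adjusted p = 0.0132), with an interaction of 0.80 ± 0.16 (adjusted p = 0.00659). At 35 °C both met30-6 arrays lay above both PY1 arrays, by a mean of 0.68 ± 0.11 (adjusted p = 0.00172). The call in PY1 ended without any of 6 arrays. It was −0.45 and −0.29 without replicate 1 and 2 of PY1 at 25 °C, −0.41 and −0.33 without replicate 1 and 2 of PY1 at 35 °C, and −0.37 without replicate 1 or 2 of met30-6 at 25 °C, with adjusted p up to 0.173. The call in met30-6 ended without replicate 2 of met30-6 at 25 °C (0.40, adjusted p = 0.0587) or replicate 2 of met30-6 at 35 °C (0.26, adjusted p = 0.0507). *PDC1* lay between 14.24 and 14.35 on all arrays.

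Among the alcohol dehydrogenase genes, *ADH3* rose and *ADH5* fell in both strains, *ADH4* fell in met30-6, and *ADH1* and *ADH2* did not pass the test. *ADH3*, which encodes the mitochondrial enzyme, rose by 0.36 ± 0.08 in PY1 (adjusted p = 0.0123) and 0.53 ± 0.08 in met30-6 (adjusted p = 0.00081). Its values were 13.19 and 12.97 in PY1 at 25 °C, 13.42 and 13.45 in PY1 at 35 °C, 13.37 and 13.40 in met30-6 at 25 °C, and 13.90 and 13.93 in met30-6 at 35 °C. The 2 arrays of PY1 at 25 °C lay lowest and those of met30-6 at 35 °C highest. The call in PY1 ended without replicate 1 or 2 of PY1 at 35 °C (0.37 and 0.345, adjusted p up to 0.0671). The interaction of 0.18 did not pass (adjusted p = 0.224) but was called without replicate 2 of PY1 at 25 °C (0.285, adjusted p = 0.0257). In met30-6 it exceeded PY1 by 0.48 at 35 °C (adjusted p = 0.00139) and by 0.30 at 25 °C (adjusted p = 0.0467). The last call ended when any array other than replicate 1 of PY1 at 25 °C was left out. The value was 0.195 without replicate 2 of PY1 at 25 °C, 0.32 and 0.29 without replicate 1 and 2 of met30-6 at 25 °C, and 0.305 without any one of the 35 °C arrays, with adjusted p up to 0.195.

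*ADH5* fell by 0.27 ± 0.06 in PY1 (adjusted p = 0.0106) and by 0.37 ± 0.06 in met30-6 (adjusted p = 0.000999), and its strain difference at 35 °C was −0.01 (95% interval −0.14 to 0.12). The call in PY1 ended without replicate 1 of PY1 at 35 °C (−0.23, adjusted p = 0.0613). *ADH4*, whose expression is known to rise when zinc is short, fell by 0.25 ± 0.07 in met30-6 (adjusted p = 0.02), a call that ended without replicate 1 or 2 of met30-6 at 25 °C (−0.27 and −0.23) or replicate 2 of met30-6 at 35 °C (−0.17), with adjusted p up to 0.111. At 35 °C it was below PY1 in met30-6, by 0.33 ± 0.07 (adjusted p = 0.00643). *ADH2*, the gene for the ethanol-oxidising enzyme that glucose represses, varied between 10.18 and 10.98 with overlapping groups. Its difference in met30-6 was −0.11, with a 95% interval of −0.66 to 0.44, the widest of the members. *ADH1*, the main fermentative gene, had a difference of 0.09 in met30-6 (−0.06 to 0.23).

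In the glycerol branch the 2 genes of glycerol-3-phosphate dehydrogenase moved apart in both strains. Both passed the test in met30-6, and only *GPD1* did in PY1. *GPD1*, the isozyme gene linked to osmotic stress, stood at 12.46 and 12.33 in PY1 at 25 °C, 12.58 and 12.62 in PY1 at 35 °C, 12.11 and 12.14 in met30-6 at 25 °C, and 13.15 and 13.25 in met30-6 at 35 °C. The met30-6 arrays were the lowest at 25 °C and the highest at 35 °C, with no overlap between groups. It rose 2.11-fold in met30-6 (1.08 ± 0.06, adjusted p = 1.42e-05), and the interaction was 0.87 ± 0.09 (adjusted p = 0.000437). At 35 °C it was 1.51-fold above PY1 in met30-6 (0.60 ± 0.06, adjusted p = 0.000203).

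The smaller *GPD1* differences were less stable. In PY1 it rose by 0.20 ± 0.06 (adjusted p = 0.0461), and it was no longer called with array medians centred (0.15, adjusted p = 0.108) and when any array other than replicate 1 of PY1 at 25 °C was left out. The value was 0.14 without replicate 2 of PY1 at 25 °C, 0.22 and 0.185 without replicate 1 and 2 of PY1 at 35 °C, and 0.20 without any one met30-6 array, with adjusted p up to 0.176. At 25 °C it was lower in met30-6 by 0.27 ± 0.06 (adjusted p = 0.0365), a call that ended when any array other than replicate 2 of PY1 at 25 °C was left out. That value was −0.21 without replicate 1 of PY1 at 25 °C, −0.26 and −0.29 without replicate 1 and 2 of met30-6 at 25 °C, and −0.27 without any one of the 35 °C arrays, with adjusted p up to 0.171. *GPD2*, the isozyme gene used without oxygen, fell by 0.56 ± 0.18 in met30-6 (adjusted p = 0.0267), where its 25 °C arrays lay far apart, at 9.92 and 9.40, and its 35 °C arrays at 9.08 and 9.11. This call ended without replicate 1 of met30-6 at 25 °C (−0.30), replicate 1 of met30-6 at 35 °C (−0.55) or replicate 2 of met30-6 at 35 °C (−0.58), with adjusted p up to 0.115. In PY1 its difference was −0.47 (adjusted p = 0.0811), and the interaction was −0.09 (95% interval −0.69 to 0.51). The PY1 value was called in 4 of 14 alternatives, among them quantile normalization (−0.58, adjusted p = 0.0394) and an intensity trend (−0.47, adjusted p = 0.0305).

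In the acetate branch the 2 mitochondrial aldehyde dehydrogenase genes went in opposite directions. *ALD4*, the main mitochondrial enzyme gene, stood at 12.23 and 12.06 in PY1 at 25 °C, 12.89 and 12.93 in PY1 at 35 °C, 12.23 and 12.30 in met30-6 at 25 °C, and 13.86 and 13.85 in met30-6 at 35 °C. At 25 °C the strain difference was 0.12 (95% interval −0.04 to 0.29), and at 35 °C both met30-6 arrays lay above both PY1 arrays. It rose 1.70-fold in PY1 (0.76 ± 0.07, adjusted p = 0.000437) and 3.0-fold in met30-6 (1.58 ± 0.07, adjusted p = 4.54e-06). The interaction was 0.82 ± 0.10 (adjusted p = 0.000684), and at 35 °C the strains differed 1.92-fold (0.94 ± 0.07, adjusted p = 3.31e-05).

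*ALD5*, which encodes the other mitochondrial aldehyde dehydrogenase, stood at 12.74 and 12.63 in PY1 at 25 °C, 12.33 and 12.38 in PY1 at 35 °C, 12.30 and 12.26 in met30-6 at 25 °C, and 10.39 and 10.14 in met30-6 at 35 °C. The 2 met30-6 arrays at 35 °C lay well below the other 6. It was 4.03-fold lower at 35 °C than at 25 °C in met30-6 (−2.01 ± 0.09, adjusted p = 5.3e-06) and 4.25-fold lower than in PY1 at 35 °C (−2.09 ± 0.09, adjusted p = 4.68e-06). The interaction was −1.68 ± 0.13 (adjusted p = 0.00013), the lowest among the members. In PY1 it fell by 0.33 ± 0.09 (adjusted p = 0.0296), a call that ended without replicate 1 or 2 of PY1 at 25 °C (−0.27 and −0.39) or replicate 1 or 2 of PY1 at 35 °C (−0.30 and −0.355), with adjusted p up to 0.122. At 25 °C it was lower in met30-6 by 0.41 ± 0.09 (adjusted p = 0.0304). That call ended without replicate 1 or 2 of PY1 at 25 °C (−0.35 and −0.46), replicate 1 or 2 of met30-6 at 25 °C (−0.43 and −0.39), or either PY1 array at 35 °C (−0.41), with adjusted p up to 0.141.

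*ALD6*, the gene of the main cytosolic aldehyde dehydrogenase, lay between 13.20 and 13.45 on all arrays, with a difference of −0.02 in met30-6 (95% interval −0.22 to 0.18). With quantile normalization it was lower at 35 °C in PY1 (−0.19, adjusted p = 0.00939) and in met30-6 (−0.32, adjusted p = 0.000419). Its strain difference at 35 °C then turned from 0.13 to −0.12 (adjusted p = 0.0267). With array medians centred that strain difference was called in the opposite direction (0.21, adjusted p = 0.0441). *ACS1*, the acetyl-CoA synthetase gene that glucose represses, stood at 11.06 and 11.26 in PY1 at 25 °C, 11.01 and 11.18 in PY1 at 35 °C, 11.12 and 11.01 in met30-6 at 25 °C, and 11.50 and 11.43 in met30-6 at 35 °C. It rose by 0.40 ± 0.09 in met30-6 (adjusted p = 0.00749), with −0.07 in PY1 and an interaction of 0.47 ± 0.13 (adjusted p = 0.0246). The interaction call ended without replicate 2 of PY1 at 25 °C (0.37), replicate 1 of PY1 at 35 °C (0.38), replicate 2 of met30-6 at 25 °C (0.41), or replicate 1 or 2 of met30-6 at 35 °C (0.435 and 0.50), with adjusted p up to 0.0781. At 35 °C it exceeded PY1 in met30-6 by 0.37 (adjusted p = 0.0106), a call that ended without replicate 1 of PY1 at 35 °C (0.28) or replicate 1 of met30-6 at 35 °C (0.34), with adjusted p up to 0.0657. *ACS2*, the synthetase gene needed on glucose, had a difference of 0.18 in met30-6 (95% interval −0.06 to 0.42), which was called without replicate 1 or replicate 2 of PY1 at 25 °C. Its strain difference at 35 °C, 0.16, did not pass (adjusted p = 0.187) but was called with array medians centred (0.25, adjusted p = 0.0446).

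Major and minor isozymes were then set against each other within each array. For each of the 15 measured pairs, the value of the major gene was subtracted from that of the minor gene, and only changes of this difference between groups were read, because levels of different probe sets cannot be compared. An exact permutation test of the F statistic over the 4 groups used all 2520 assignments of the 8 arrays, which fall into 105 distinct partitions, so that the smallest possible p was 0.00952. These p-values are not adjusted. The test was below 0.05 for 12 pairs, and 6 reached the smallest p: *TDH1* with *TDH3*, *GPM2* with *GPM1*, *PYK2* with *CDC19*, *PDC5* with *PDC1*, *PDC6* with *PDC1*, and *ALD5* with *ALD6*. It asks whether the 4 groups differ at all and does not say which. No share over other pairs of genes was computed, and with 38.8% of all genes called higher and 29.3% lower in met30-6 at 35 °C, the count is not read as particular to isozymes.

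The direction of the shift differed among these pairs. The difference of *TDH1* from *TDH3* rose between 25 °C and 35 °C by 0.91 in PY1 and 1.50 in met30-6, with group SDs of 0.08 to 0.16. That of *GPM2* from *GPM1* rose by 3.04 and 3.07, with SDs of 0.07 to 0.13, and at 25 °C it also lay 1.14 above PY1 in met30-6. For *PYK2* and *CDC19* the change was 0.26 in PY1 and 0.96 in met30-6. The pair with *ALD5* went the other way, by −0.27 in PY1 and −1.99 in met30-6, while *ALD4* against the same major gene gave 0.82 and 1.60 (exact p = 0.0286). Against *PDC1*, the change was −0.38 in PY1 and 0.47 in met30-6 for *PDC5*, and −0.26 and 1.23 for *PDC6*, whose own difference in PY1 did not pass the test. The values of *TDH3*, *GPM1*, *CDC19* and *PDC1* in these pairs were 14 or more in all groups, and *TDH1* reached that level in met30-6 at 35 °C, so these differences are taken at the upper end of the scale, whose part was not tested.

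Of the other pairs, *ADH3* with *ADH1* gave changes of 0.31 in PY1 and 0.45 in met30-6 (exact p = 0.0286) and *ADH5* with *ADH1* gave −0.32 and −0.45 (exact p = 0.0476). *GPM3* with *GPM1* gave −0.18 and −0.61 (exact p = 0.0381), and *ENO1* with *ENO2* gave 0.12 and 0.24 (exact p = 0.0381). *GPD2* with *GPD1*, a pair in which both genes serve as main gene in different conditions, gave −0.67 and −1.64 (exact p = 0.019), and the larger part of the change in met30-6 came from *GPD1*. Not below 0.05 were *ADH2* with *ADH1* (exact p = 0.552), *ADH4* with *ADH1* (exact p = 0.0762) and *ACS1* with *ACS2* (exact p = 0.543). When each array was left out in turn, 8 of the 12 pairs stayed below 0.05 every time. The pairs of *GPM3*, *ENO1*, *PDC5* and *ADH5* did so in 3 of 8 cases each, with exact p up to 0.0952, 0.143, 0.0762 and 0.0762. *ADH1* is shared by 4 pairs, and *GPM1*, *PDC1* and *ALD6* by 2 pairs each, so the pairs are not independent. *ADH1*, *ENO2* and *GPM1* also had means of 14 or more in all groups. The differences in their pairs are thus taken at the upper end of the scale, whose part was not tested. Paralogs have similar sequences, and whether a probe set also read its paralog's transcript was not tested, because the probe sequences were not used here.

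**Figure D4:**
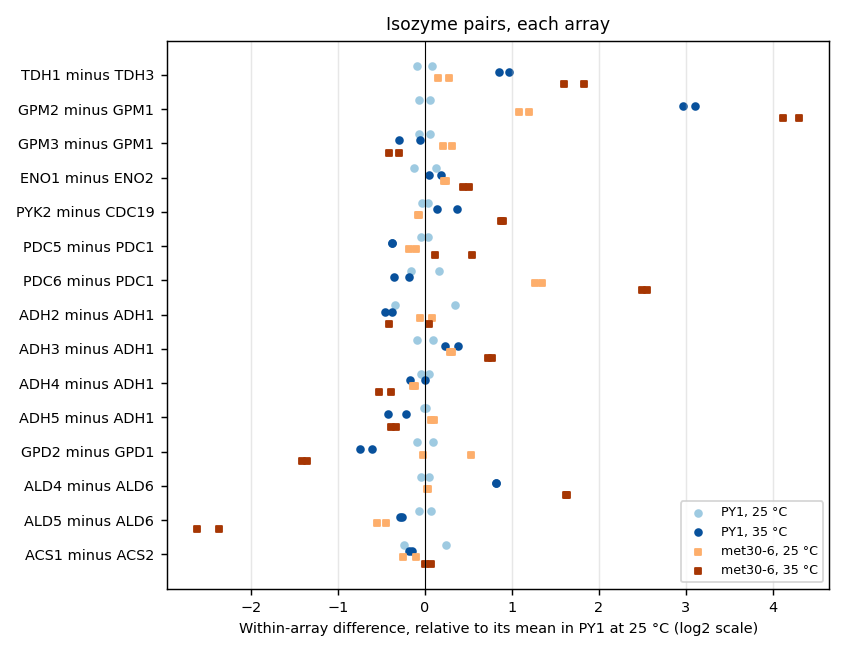
Within-array difference of the minor minus the major isozyme gene for 15 pairs, on the log2 scale relative to its mean in PY1 at 25 °C (x axis), 1 point per array. The pair of *GPM2* and *GPM1* lies about 3.04 higher at 35 °C than at 25 °C in PY1, and the pair of *ALD5* and *ALD6* lies lowest in met30-6 at 35 °C.

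Genes of the neighbouring routes were set beside the members from lists of 6 to 10 genes, whose medians can be read against 0.074 in met30-6 and 0.075 in PY1 over all genes. Their counts stand beside 38.8% of all genes called higher and 29.3% lower in met30-6, and 26.2% and 10.4% in PY1. Of 6 genes of hexose phosphorylation and fructose 2,6-bisphosphate turnover, 5 rose in met30-6 and 3 rose in PY1, with medians of 0.74 and 0.28. *PFK26*, which encodes an enzyme that makes fructose 2,6-bisphosphate, the activator of phosphofructokinase, rose by 1.69 ± 0.07 in met30-6 (adjusted p = 5.04e-06) and 0.75 ± 0.07 in PY1 (adjusted p = 0.000677). *FBP26*, which encodes the phosphatase that removes it, rose by 0.79 ± 0.06 in met30-6 (adjusted p = 3.03e-05), with −0.01 in PY1 and an interaction of 0.80 (adjusted p = 0.000375). *HXK1*, the hexokinase gene that glucose represses, rose by 0.69 ± 0.11 in PY1 (adjusted p = 0.00448) and 1.45 ± 0.11 in met30-6 (adjusted p = 4.63e-05).

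Of 10 transcription factor genes known to act on these routes, 7 rose and 2 fell in met30-6, and 3 rose in PY1, with medians of 0.42 and 0.155. *ADR1*, which encodes an activator of *ADH2* and of other glucose-repressed genes, rose by 0.86 ± 0.06 in PY1 (adjusted p = 0.000196) and 1.12 ± 0.06 in met30-6 (adjusted p = 1.12e-05), while *ADH2* itself did not pass in either strain. *CAT8*, an activator gene of gluconeogenesis, rose by 2.25 ± 0.23 in PY1 (adjusted p = 0.000706) from a dim 6.82 ± 0.53 (SD, n = 2), and by 3.31 ± 0.23 in met30-6 (adjusted p = 2.63e-05), with an interaction of 1.06 (adjusted p = 0.0325). *SIP4*, which encodes a related activator, rose by 3.07 ± 0.14 in met30-6 (adjusted p = 5.82e-06) from 5.07 ± 0.07, a level at which sizes are uncertain, and by 1.28 ± 0.14 in PY1 (adjusted p = 0.00101). *MIG1*, the gene of a repressor in glucose repression, had an interaction of 0.56 (adjusted p = 0.00113). *RAP1*, a general activator gene for glycolytic and ribosomal protein genes, fell by 0.32 in met30-6 (adjusted p = 0.00545, interaction −0.51), and *PDC2*, which encodes an activator of *PDC1* and *PDC5*, fell by 0.46 (adjusted p = 0.00301).

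Of 6 further glycerol genes, 3 rose in each strain and 1 fell in PY1, with medians of 0.30 in met30-6 and 0.068 in PY1. *GPP2*, which encodes a glycerol-3-phosphatase that acts after *GPD1*, rose by 0.67 ± 0.08 in PY1 (adjusted p = 0.00137) and 1.18 ± 0.08 in met30-6 (adjusted p = 2.54e-05). *GUT2*, the gene of the mitochondrial glycerol-3-phosphate dehydrogenase used in glycerol breakdown, rose by 0.33 ± 0.06 in PY1 (adjusted p = 0.00643) and 1.52 ± 0.06 in met30-6 (adjusted p = 3.59e-06). *GUT1*, the glycerol kinase gene, fell by 0.30 in PY1 (adjusted p = 0.014) and had an interaction of 0.55 (adjusted p = 0.00325). Of 7 other alcohol and aldehyde dehydrogenase genes, 6 rose and 1 fell in met30-6 and 5 rose in PY1, with medians of 1.35 and 0.41. *ALD3*, a stress-induced cytosolic aldehyde dehydrogenase gene, rose by 4.29 ± 0.10 in met30-6 (adjusted p = 4.52e-07) and 1.63 ± 0.10 in PY1 (adjusted p = 8.83e-05). *BDH1*, the butanediol dehydrogenase gene, rose by 1.35 ± 0.05 in met30-6 and 0.69 ± 0.05 in PY1, and its neighbour and paralog *BDH2* had an interaction of 2.04 (adjusted p = 0.00015). *ADH6* fell by 0.30 in met30-6 (adjusted p = 0.0324).

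Of 9 genes of pyruvate entry into mitochondria and pyruvate carboxylation, 7 rose and 1 fell in met30-6 and 2 rose in PY1, with medians of 0.37 and 0.23. The 2 pyruvate carboxylase genes went in opposite directions in met30-6: *PYC1* rose by 0.74 ± 0.06 (adjusted p = 7.49e-05) and *PYC2* fell by 0.27 ± 0.08 (adjusted p = 0.0194). *MPC1*, of the mitochondrial pyruvate carrier, rose by 0.37 ± 0.05 in met30-6 (adjusted p = 0.000698), and *MPC2*, of the same carrier, rose by 0.23 ± 0.06 in PY1 (adjusted p = 0.0298) and 0.28 ± 0.06 in met30-6 (adjusted p = 0.00703). The *MPC1* difference in PY1 was 0.08 (adjusted p = 0.244). Of 6 genes of gluconeogenesis and the glyoxylate cycle, 3 rose and 2 fell in met30-6 and 1 rose and 1 fell in PY1, with medians of 0.62 and 0.084. *PCK1*, which encodes phosphoenolpyruvate carboxykinase, rose by 0.67 ± 0.14 in PY1 (adjusted p = 0.0123) and 0.97 ± 0.14 in met30-6 (adjusted p = 0.000939). *SFC1*, a mitochondrial succinate-fumarate carrier gene, was dim throughout and rose by 0.98 ± 0.24 in met30-6 (adjusted p = 0.00955). *ICL1*, the isocitrate lyase gene, fell by 1.09 ± 0.07 in PY1 (adjusted p = 0.000117) and 0.75 ± 0.07 in met30-6 (adjusted p = 9.79e-05), and *MDH2*, of cytosolic malate dehydrogenase, fell by 0.90 ± 0.10 in met30-6 (adjusted p = 0.000255).

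**Figure D5:**
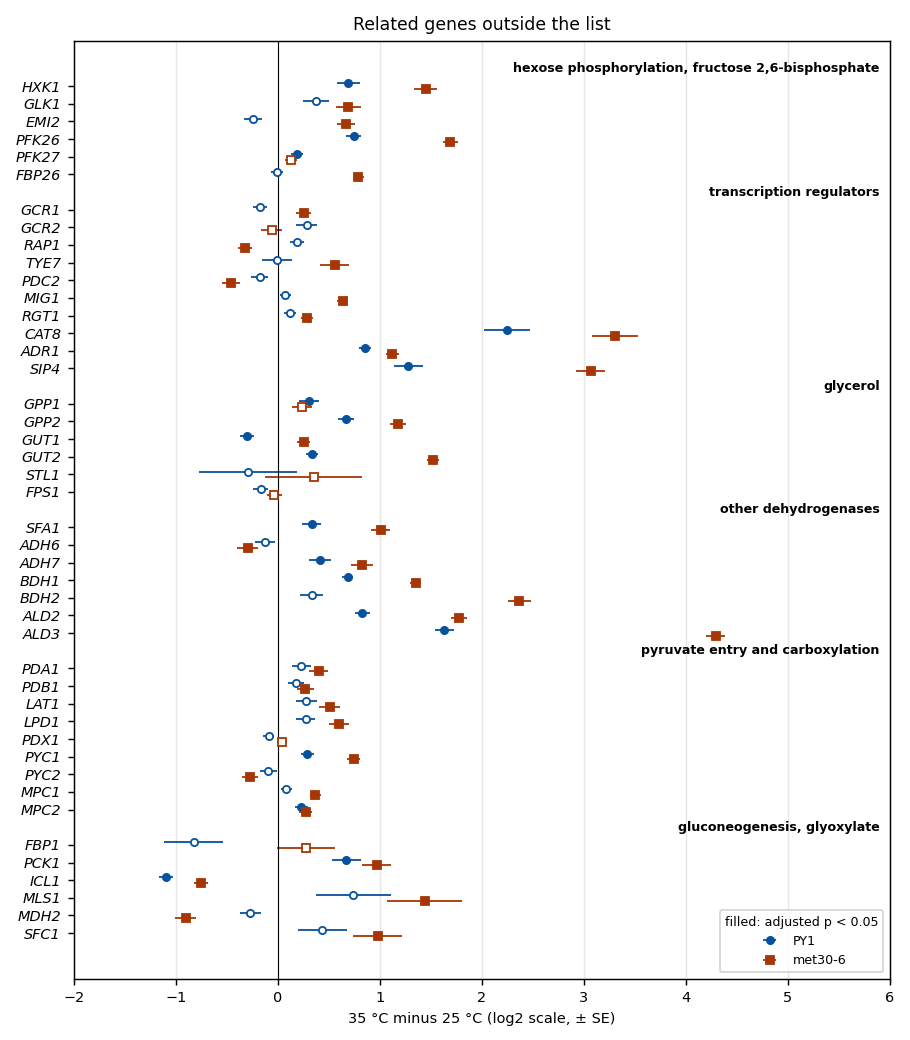
Difference between 35 °C and 25 °C on the log2 scale (x axis) for the genes of 6 neighbouring routes in PY1 (circles) and met30-6 (squares), with SE bars and filled symbols where the adjusted p was below 0.05. *ALD3* reaches 4.29 in met30-6 and 1.63 in PY1, and *ICL1* lies below 0 in both strains.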

How the data were processed

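The values are log2 expression values deposited by the authors as a table of 5716 probe sets on 8 arrays. The log base was inferred from their range, 0 to 14.508. No source used here states the background correction, summarisation or scaling. RNA was labelled with biotin in a one-cycle assay, per the labels' protocols. Probe sets were named from the platform annotation, with 12 symbols updated from a gene table of assembly R64: 5498 had 1 symbol, 0 several and 218 none. For the 47 genes with several probe sets, the one with the highest mean was kept.

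limma 3.58.1 in R 4.3.3 was fitted with 1 mean for each of the 4 groups, all 8 arrays sharing the estimate of the spread (residual df 4, prior df 2.7). The test was two-sided and Benjamini-Hochberg adjusted over 5449 genes, and was checked on simulated data. The number of arrays limits the precision. The members and lists were chosen with earlier results of these data known, so no p-value is adjusted over a list. All members are named, and from each other list up to 2 genes higher and 2 lower with the lowest adjusted p in the temperature and interaction comparisons. A search of promoter motifs was not run, as promoter sequences were not used here. Alternatives were array centring, quantile normalization, leaving out the lowest 25% of genes, means of probe sets, all probe sets, an intensity trend, a replicate block and leaving out each array.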

Additional observations from a re-analysis of the deposited data

Results flagged for a closer look

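For 9 members the response to 35 °C differed between met30-6 and PY1 by a test of the difference itself, limma's interaction term. The response was higher in met30-6 for *PDC6* (1.438), *GPD1* (0.872), *ALD4* (0.82), *PDC5* (0.797), *PYK2* (0.73), *TDH1* (0.505) and *ACS1* (0.466). It was lower in met30-6 for *ALD5* (−1.683) and *GPM3* (−0.514). All values are differences of log2 differences over 4 groups of 2 arrays. The calls of all but *ACS1* held in each of the 15 alternatives. *ACS1* fell short without any of 5 arrays (0.369 to 0.498, adjusted p up to 0.0781): replicate 2 of PY1 at 25 °C, replicate 1 of PY1 at 35 °C, replicate 2 of met30-6 at 25 °C, and both met30-6 arrays at 35 °C.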

How the results depend on the processing

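Of 155 member values, 54 were called, and 38 of these held in all 15 alternatives. Of the 101 others, 29 were called in at least 1 with the sign of the main fit. That count leaves out calls with the opposite sign, which quantile normalization gave for *HXK2* and *ALD6*. With quantile normalization, the strain difference at 35 °C turned to −0.193 for *HXK2* and −0.123 for *ALD6*, members lower in PY1 at 35 °C numbered 6 and those below PY1 in met30-6 at 35 °C numbered 5. With array medians centred, 5 members were higher in met30-6 at 25 °C and 17 at 35 °C, the latter with *ALD6* (0.212). Without the lowest 25% of genes, 5 were higher at 25 °C. *GPD2* was not in that fit. Over all genes, quantile normalization gave 1144 lower at 35 °C in PY1 and 1927 below PY1 in met30-6 at 35 °C. These numbered 569 and 1781 in the main fit. Centring gave 520 higher in met30-6 at 25 °C and 2265 at 35 °C, against 378 and 1852. Leaving out the lowest 25% gave 355 higher at 25 °C in the smaller set of genes. The cause of these moves was not tested.

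Leaving out each array gave 3 to 9 members higher and 0 to 3 lower in PY1, 3 to 5 lower in met30-6, 2 to 6 higher and 0 to 1 lower between the strains at 25 °C, and 8 to 12 isozyme pairs below 0.05. Replicate numbers did not pair the samples, since deviations correlated at −0.182 to 0.109 between groups. With the replicate block, 1 member was lower in met30-6 at 25 °C, and 4 calls ended: *PDC5* in PY1 (−0.37, adjusted p = 0.0546), *GPD1* in PY1 (0.204, adjusted p = 0.0821), and *GPD1* and *ADH3* between the strains at 25 °C (−0.273 and 0.305, adjusted p = 0.0775 and 0.0843). Over all genes, the replicate block left 248 lower in met30-6 at 25 °C, against 324 in the main fit. The number of arrays, 2 a group, limits small differences.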
